A study of Mus musculus with 6 samples.

Results

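Kinesins are motor proteins that walk along microtubules or take them apart at their ends, and a subset of them works mainly while a cell divides. Described here are 10 of these mitotic kinesins, Kif11, Kif14, Kif15, Kif18a, Kif20a, Kif20b, Kif22, Kif23, Kif2c and Kif4, chosen by gene symbol from a table of 53465 mouse genes. Each symbol had 1 row, and all 10 had enough counts to be tested. The RNA came from bone marrow cells in the gate of long-term blood stem cells (LT-HSCs), set by the absence of lineage markers, Flk2 and CD34 and the presence of Sca-1 and c-Kit. All mice were wild type and had received total body irradiation of 5.0 Gy, after which 1 group was given saline and the other carnosine, which is a natural dipeptide made from histidine and beta-alanine. There were 3 libraries per group, and no library came from mice that were not irradiated. The labels give neither the age of the mice, the dose of carnosine and the time of the sort, nor say if each library stands for a mouse of its own, so the p-values cover the library-to-library spread alone, which could be technical.

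In mitosis, motors of the spindle push the poles apart and hold them there, chromokinesins move chromosome arms, depolymerising kinesins remove tubulin from microtubule ends at the kinetochores, and the motors of the midzone prepare the cut between the daughter cells. Most of these genes are transcribed in G2 and M phase, when the MuvB complex with B-Myb and FoxM1 acts at their promoters, while in resting cells the DREAM complex represses them. Long-term stem cells are known to divide rarely.

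With carnosine, 9 of the 10 mitotic kinesins rose and 0 fell (quasi-likelihood F-test of edgeR, p adjusted by Benjamini-Hochberg over 15533 genes, threshold 0.05). Of all tested genes, 19.6% rose and 19.8% fell, 39.4% together. The median log2 fold change of the 10 genes was 0.36, and that of all tested genes was -5.03e-05. The increases were modest: the largest was that of Kif2c, 1.66-fold (95% confidence interval 1.53 to 1.804), and the smallest called one was that of Kif20b, 1.153-fold (1.08 to 1.23). For each of the 10 genes, Kif4 included, every carnosine library lay above every saline library, a pattern that 26.2% of all tested genes showed, while 26.1% showed the opposite one. Levels are given in CPM, counts scaled to the size of the library by edgeR's TMM normalization, a unit that does not correct for gene length and so compares libraries, not genes. In bulk RNA, more dividing cells and more of these transcripts per dividing cell cannot be told apart.

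**Figure D1:**
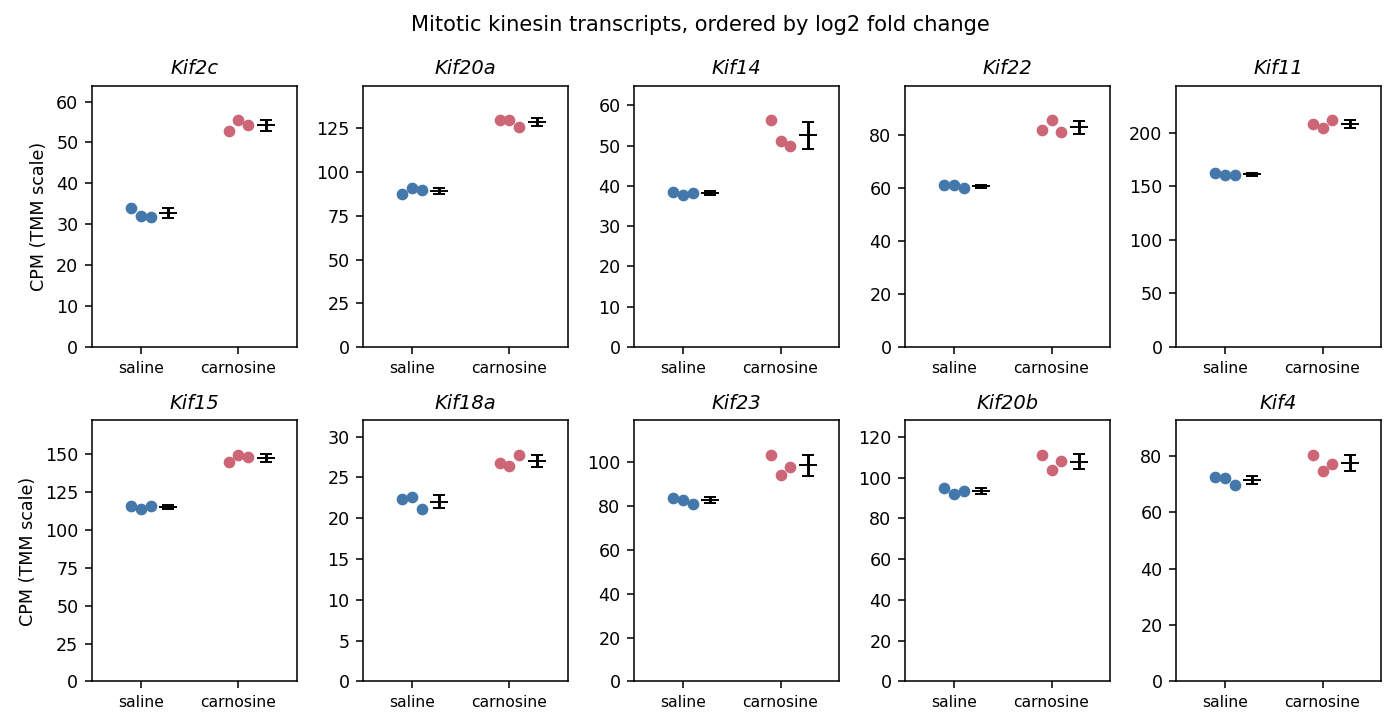
Level of each mitotic kinesin in CPM (vertical axis, from 0) in the 3 saline and 3 carnosine libraries (points), with the mean and SD beside them. Each panel has its own vertical scale, and in each all carnosine points lie above all saline points. The fold change is largest for Kif2c (32.7 against 54.2 CPM) and smallest for Kif4 (71.4 against 77.4 CPM).

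The region around the transcription start was compared among the genes, since their levels rose together. RefSeq start sites on GRCm38.p6 were available for 9 of the 10 genes, and 2 sets of letters were searched on both strands: the cell cycle homology region (CHR), spelled TTTGAA or TTCGAA, to which the MuvB core of these complexes binds, and CCAAT, the box of the factor NF-Y. The sequences shown are those of 5 genes with a CHR match close to the start and of Kif18a, which had no match to either in 300 bases. Each runs from 60 bases before to 25 bases after the RefSeq start, 5′ to 3′ on the strand of the gene, and capitals mark the matches (TTCAAA and ATTGG are the CHR and the CCAAT letters read on the other strand). They lie at chr19:37376322-37376406 (plus strand, Kif11), chr9:122951021-122951105 (plus, Kif15), chr7:127042396-127042480 (minus, Kif22), chr9:61946775-61946859 (minus, Kif23), chr19:34922298-34922382 (plus, Kif20b) and chr2:109280678-109280762 (plus, Kif18a).
Kif11: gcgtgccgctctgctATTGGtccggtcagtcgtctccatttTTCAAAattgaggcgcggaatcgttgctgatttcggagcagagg
Kif15: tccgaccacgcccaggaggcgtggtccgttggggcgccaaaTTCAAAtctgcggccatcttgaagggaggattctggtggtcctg
Kif22: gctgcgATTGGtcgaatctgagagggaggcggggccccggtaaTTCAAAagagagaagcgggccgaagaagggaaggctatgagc
Kif23: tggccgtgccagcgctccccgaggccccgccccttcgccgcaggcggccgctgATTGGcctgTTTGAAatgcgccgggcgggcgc
Kif20b: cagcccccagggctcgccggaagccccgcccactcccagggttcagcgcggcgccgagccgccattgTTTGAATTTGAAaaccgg
Kif18a: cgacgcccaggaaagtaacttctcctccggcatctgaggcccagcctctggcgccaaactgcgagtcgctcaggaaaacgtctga

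Within these 85 bases, 6 of the 9 genes (66.7%) had a CHR match, against 4.72% of all 32851 RefSeq promoter windows. A CCAAT match was found in 4 of the 9 (44.4%), against 13.5% of all windows, and the same 4 genes held both (44.4%, against 0.712%). In Kif11 and Kif22 the arrangement was alike: the CHR match began 19 and 17 bases before the start and the CCAAT match 45 and 54 bases before it. Kif15 had its CHR match 19 bases before the start and no CCAAT match. In Kif23 the CCAAT match began 7 bases before the start and the CHR match at base 3 of the transcript, in Kif4 they began 5 bases before it and at base 20, and in Kif20b adjoining CHR matches began at bases 8 and 14. All matches were to TTTGAA, and no CHR match overlapped a CCAAT match. Over the full windows of 300 bases (250 before and 50 after the start), 8 of the 9 genes had a CHR match and 5 of the 9 a CCAAT match, against 19.2% and 37.4% of all windows. Matches are letters in a window and show no binding.

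The other gene groups gave context for these shares. In each group a gene counted if any of its windows matched, whereas the share of all windows is per window. Among 21 genes of G2 and M phase that encode no motor, 10 had a CHR match (47.6%) and 9 had both (42.9%) in the 85 bases. Of 18 kinesins of transport and cilia, 2 had a CHR match (11.1%) and 0 had both. Of 28 genes of G1/S and replication, 2 had a CHR match (7.14%), while 13 had a CCAAT match (46.4%). The start sites carry a limit for 3 genes: relative to the 5′ end of the gene in the deposited table, the RefSeq start lay 3867 bases inside Kif2c, 1505 bases inside Kif14 and 328 bases inside Kif4, and at most 51 bases away for the other 6. The windows of Kif2c and Kif14, whose nearest CHR matches began 103 and 228 bases before the RefSeq start, may therefore not be the promoters in use. The window of Kif4, which held both matches close to the start, carries the same limit.

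**Figure D2:**
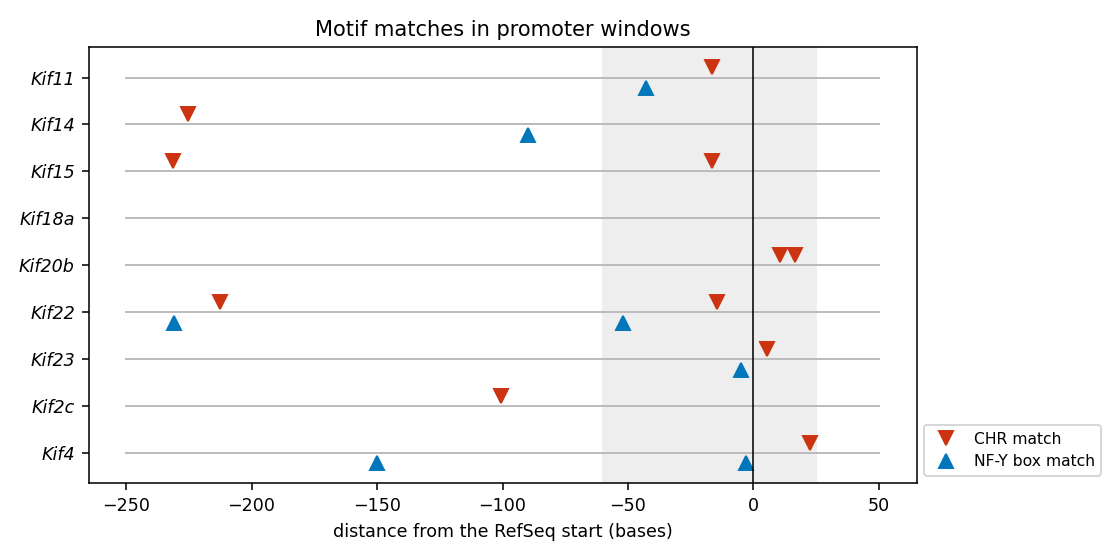
CHR matches (downward triangles) and matches to the NF-Y box (upward triangles) in the RefSeq promoter windows of 9 mitotic kinesins, by distance from the start site in bases (horizontal axis). The shaded band is the 85 bases searched close to the start, in which 6 of the 9 genes have a CHR match and Kif18a has none of either.

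Among the motors that build the spindle, Kif11 and Kif15 rose by nearly the same factor. Kif11 (chr19:37376403-37421859, plus strand, GRCm38), the tetrameric motor that slides antiparallel microtubules apart and separates the spindle poles, stood at 162.7, 160.7 and 160.1 CPM in saline replicates 1 to 3 and at 208.3, 203.9 and 211.8 CPM in carnosine replicates 1 to 3. All carnosine libraries were higher, and the 2 ranges were far apart next to the spread within either. The means were 161 ± 1.36 and 208 ± 3.97 CPM (SD, n = 3 each), which is a log2 fold change of 0.37 ± 0.0263 (SE) with an edgeR adjusted p of 5.4e-05. Kif15 (chr9:122951046-123018733, plus strand), which can keep a spindle bipolar when Kif11 is inhibited, was at 116.1, 113.7 and 115.8 CPM with saline and at 144.9, 149.9 and 148.3 CPM with carnosine. The groups were again apart, with a log2 fold change of 0.36 ± 0.0289 (SE; edgeR adjusted p = 9.5e-05). The number of Kif11 counts per Kif15 count in the same library was 1.40 ± 0.0157 with saline and 1.41 ± 0.0422 with carnosine (SD, n = 3 each; exact two-sided permutation p = 0.70).

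The kinesins that act on microtubule ends differed in the size of their rise. Kif2c (chr4:117159639-117182639, minus strand), the centromeric depolymerase MCAK that removes faulty attachments, was at 34.1, 32.1 and 31.8 CPM with saline and at 52.8, 55.5 and 54.4 CPM with carnosine. No other of the 10 genes had so large a fold change: the log2 fold change was 0.73 ± 0.0515 (SE; edgeR adjusted p = 5.0e-05). Kif18a (chr2:109280738-109341747, plus strand), which dampens the movements of chromosomes at the metaphase plate, was at 22.4, 22.6 and 21.1 CPM with saline and at 26.7, 26.4 and 27.8 CPM with carnosine. It had the fewest counts of the 10, 2075 over all libraries, and rose by a log2 fold change of 0.29 ± 0.0590 (SE; edgeR adjusted p = 0.00717). Its row overlapped Mettl15 on the opposite strand by 11 bases. Counts of Kif2c per count of Kif18a went from 1.52, 1.42 and 1.51 in the saline libraries to 1.97, 2.10 and 1.96 in the carnosine libraries, with no overlap. The exact two-sided permutation p was 0.10, the smallest that 3 against 3 libraries allow, and 0.12 after adjustment over the 6 pairs of kinesins compared, which were chosen with the values in view.

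Of the chromokinesins, which bind chromosomes through their tails, Kif22 rose and Kif4 did not pass the test. Kif22 (chr7:127027729-127042471, minus strand), which pushes chromosome arms toward the spindle equator, was at 61.2, 61.0 and 60.03 CPM with saline and at 81.8, 85.7 and 81.2 CPM with carnosine. The saline libraries differed by about as little as any in the set, with a coefficient of variation of 0.99%. The log2 fold change was 0.45 ± 0.0406 (SE; edgeR adjusted p = 0.000168). Kif4 (chrX:100625737-100727214, plus strand), which works with condensin on the chromosome axis and with Prc1 at the midzone, was at 72.4, 72.2 and 69.6 CPM with saline and at 80.5, 74.7 and 77.1 CPM with carnosine. The groups did not overlap, but the log2 fold change of 0.12 ± 0.0441 (SE) had a 95% interval of 0.01 to 0.22 and an edgeR adjusted p of 0.0751. With log2 of the deposited FPKM values, which are scaled to the library's total count alone, Kif4 had a log2 fold change of 0.16 and passed the test (limma adjusted p = 0.0201; the 17 alternatives spanned 0.0201 to 0.284). Between the groups, counts of Kif2c per count of Kif4 went from 0.457 ± 0.0134 to 0.702 ± 0.0438 (SD, n = 3 each; exact permutation p = 0.10, the smallest possible).

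Several of these rows share ground with other genes. Kif4 overlaps Pdzd11 on the opposite strand by 832 bases, and Pdzd11 had a log2 fold change of 0.02 (edgeR adjusted p = 0.871). Kif22 overlaps an antisense gene, Gm31749, which had 114 counts over all libraries against 6066 for Kif22. The pseudogene copies Kif4-ps and Kif22-ps had 0 and 2 counts over all libraries. The kit marked the strand, but the sources used here do not give whether the counting used it.

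The other 4 genes, Kif20a, Kif23, Kif14 and Kif20b, encode motors that act mainly in cytokinesis, and all 4 rose, Kif20a most. Kif20a (chr18:34624624-34633265, plus strand) carries the chromosomal passenger complex from the chromosomes to the midzone and was at 87.5, 90.8 and 90.0 CPM with saline and at 129.7, 129.9 and 126.0 CPM with carnosine. The log2 fold change was 0.52 ± 0.0326 (SE), and its edgeR adjusted p of 2.8e-05 was the smallest of the 10. A stretch of 2327 bases is shared with Cdc23 on the opposite strand, a subunit of the anaphase-promoting complex that had 6785 counts and also rose, by a log2 fold change of 0.36 ± 0.0650 (SE; edgeR adjusted p = 0.00420). The part of the overlap in the values of Kif20a was not tested.

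Kif23 (chr9:61915905-61946774, minus strand), which forms centralspindlin with Racgap1, was at 83.8, 82.7 and 81.1 CPM with saline and at 103.5, 94.1 and 97.9 CPM with carnosine. Its carnosine libraries were spread more widely than its saline libraries, with coefficients of variation of 4.80% and 1.68%. The log2 fold change was 0.25 ± 0.0445 (SE; edgeR adjusted p = 0.00375). Kif14 (chr1:136466343-136531511, plus strand), which binds citron kinase in cytokinesis, was at 38.5, 37.6 and 38.3 CPM with saline and at 56.4, 51.2 and 49.97 CPM with carnosine. Carnosine replicate 1 was the highest, and the spread of the carnosine group, 6.48%, was the widest of the 10 genes. The log2 fold change was 0.46 ± 0.0590 (SE; edgeR adjusted p = 0.000878).

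Kif20b (chr19:34922361-34975745, plus strand), a late motor of cytokinesis, was at 94.8, 92.1 and 93.5 CPM with saline and at 111.3, 103.9 and 108.1 CPM with carnosine. All carnosine libraries were higher, with a log2 fold change of 0.21 ± 0.0377 (SE; edgeR adjusted p = 0.00465). Although Kif20a and Kif20b belong to the same kinesin family, Kif20a counts per Kif20b count went from 0.957 ± 0.0317 with saline to 1.19 ± 0.0491 with carnosine (SD, n = 3 each), and Kif23 counts per Kif20a count from 0.923 ± 0.0305 to 0.766 ± 0.0378 (SD, n = 3 each). The 6 values did not overlap between groups in either ratio (exact permutation p = 0.10 for each, the smallest possible, and 0.12 after adjustment). The remaining pair, Kif4 counts per Kif14 count, went from 1.87 ± 0.0520 to 1.48 ± 0.0595 (SD, n = 3 each), with the same permutation p-values.

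The 10 genes varied little within groups and not always together. Coefficients of variation ran from 0.84% (Kif11) to 3.74% (Kif2c) in the saline group and from 1.69% (Kif20a) to 6.48% (Kif14) in the carnosine group. Carnosine replicate 1 was the highest of its group for Kif14, Kif23, Kif20b and Kif4 and the lowest for Kif2c and Kif15. Summed over the 10 genes, the level was 773.5, 765.4 and 761.4 CPM with saline and 995.8, 975.01 and 982.5 CPM with carnosine, 1.28 times as much.

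Set against other genes of dividing cells in the same library, the sum moved up or down with the gene chosen. Divided by each of 25 genes of G2 and M phase that encode no motor, it was higher in all 3 carnosine libraries for 6 genes, lower in all 3 for 8 and overlapping for 11. Per CPM of Mki67, the proliferation antigen Ki-67, it was 0.758 ± 0.00751 with saline and 0.896 ± 0.0117 with carnosine (SD, n = 3 each), 1.18 times as much. Per CPM of Ccnb1, the mitotic cyclin B1, it was 24.4 ± 0.659 and 18.9 ± 0.164 (SD, n = 3 each), 0.777 times as much. Per CPM of the sum of the 25 genes it was 0.315 ± 0.00414 and 0.339 ± 0.00615 (SD, n = 3 each), a factor of 1.08. A large part of that sum was Mki67, at 1012 CPM on average of 2410 to 2461 CPM with saline. Its log2 fold change of 0.12 was below the median of the 25 genes, 0.34. The factor without Mki67 was not computed. The genes singled out here were named after their values were seen. Against the sum of 35 genes of G1/S and replication the factor was 1.28.

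**Figure D3:**
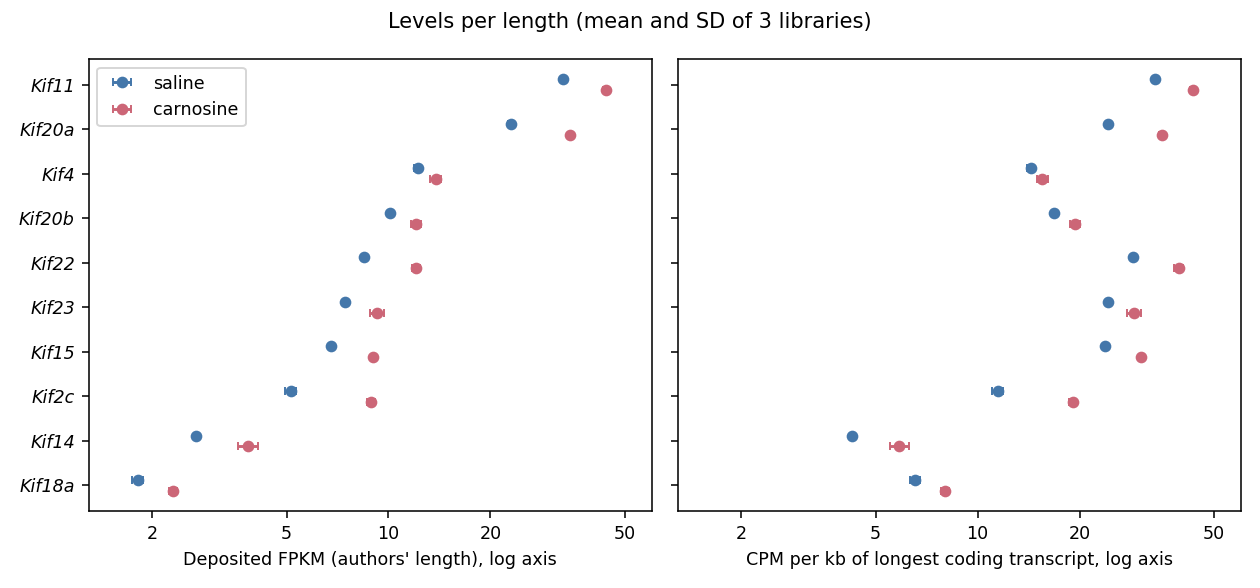
Level per length of each mitotic kinesin, as the authors' FPKM (left) and as CPM per kilobase of the longest coding transcript (right), on log axes, with the mean and SD of 3 libraries per group. Kif11 is highest by both measures, while Kif22, Kif23 and Kif15 change places with Kif4 and Kif20b.

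Levels can be ordered between genes only per length, and the order rested on the length used. By the deposited FPKM values (fragments per kilobase, scaled to the library's total count), Kif11 was highest in the saline group at 32.7 ± 0.284 and Kif18a lowest at 1.81 ± 0.0682 (SD, n = 3 each). Between them came Kif20a at 23.1, Kif4 at 12.2, Kif20b at 10.1, Kif22 at 8.48, Kif23 at 7.46, Kif15 at 6.75, Kif2c at 5.14 and Kif14 at 2.69. The order of the means was the same with carnosine, but there Kif20b (12.1 ± 0.421) and Kif22 (12.1 ± 0.357) did not differ beyond their spread, nor did Kif23 (9.26 ± 0.448), Kif15 (9.01 ± 0.152) and Kif2c (8.87 ± 0.222; SD, n = 3 each).

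The length behind the deposited FPKM was 1.0 times the longest coding transcript for Kif11 but 3.31 times for Kif22, 3.44 times for Kif15 and 3.53 times for Kif18a. Per kilobase of that transcript, an alternative added after the data were seen, Kif11 was again highest in the saline group at 33.4 ± 0.281 CPM per kilobase, now followed by Kif22 at 28.7 ± 0.284 (SD, n = 3 each). Kif20a (24.3 ± 0.467), Kif23 (24.3 ± 0.408) and Kif15 (23.7 ± 0.277) came next and did not differ beyond their spread. Kif4 moved from the third place to 14.3 CPM per kilobase, below Kif20b at 16.8 and above Kif2c at 11.5, and Kif18a (6.54) and Kif14 (4.27) were the lowest by either length.

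In the rest of the kinesin family, most further mitotic motors rose, and most transport kinesins did not pass the test. Of 6 further mitotic motors and depolymerases tested, 5 rose and 0 fell, with a median log2 fold change of 0.50. Kif18b, a partner of Kif2c at the plus ends of astral microtubules, averaged 46.8 ± 0.507 CPM under saline and 65.7 ± 1.88 CPM under carnosine (SD, n = 3 each), with a log2 fold change of 0.49 ± 0.0439 (SE; edgeR adjusted p = 0.000158). The minus-end motor Kifc1 (log2 fold change 0.51) and Kifc5b (0.59), a near-identical gene whose reads could be split between them, rose as well, as did Cenpe, the motor of the kinetochore (0.27), and Kif24, a depolymerase of the centriole (0.60, edgeR adjusted p = 0.0155). Kif2a, a depolymerase of the same family as Kif2c that also works in neurons, was named after its values were seen and was at 118 ± 3.26 and 116 ± 5.23 CPM (SD, n = 3 each), which is a log2 fold change of -0.02 (edgeR adjusted p = 0.733).

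Among 18 tested kinesins of transport and cilia, 2 rose, 3 fell and 13 did not pass the test, with a median log2 fold change of -0.16. Those higher with carnosine were Kif3b (31.2 to 38.4 CPM, log2 fold change 0.30), a subunit of the heterotrimeric kinesin-2, and Kif17 (16.2 to 19.1 CPM, 0.24). Those lower were Kif5b (249.6 to 219 CPM, -0.19), the conventional kinesin heavy chain, and the endosomal motors Kif13a (81.9 to 67.5 CPM, -0.28) and Kif13b (43.8 to 35.1 CPM, -0.32). These are shares of 11.1% higher and 16.7% lower, against 19.6% and 19.8% of all tested genes.

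**Figure D4:**
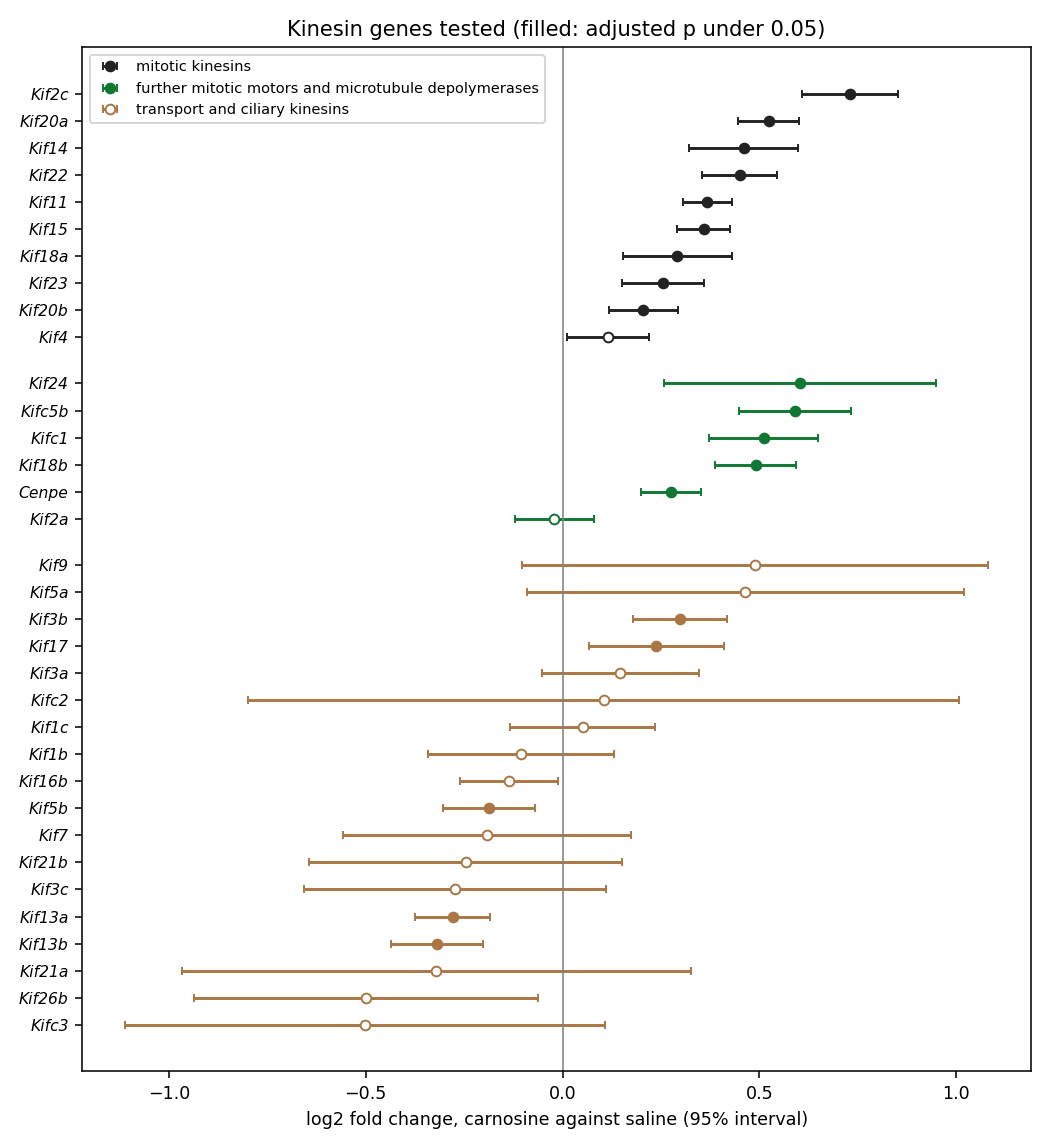
Log2 fold change of carnosine against saline with its 95% interval (horizontal axis) for the tested kinesins of 3 gene lists, with filled points for adjusted p under 0.05. All intervals of the mitotic kinesins lie above 0, whereas the transport and ciliary kinesins lie on both sides of it.

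Genes whose products work with these motors rose for the most part. Of 12 genes of the chromosomal passenger complex and the midzone, 9 rose and 0 fell (median log2 fold change 0.40). Anln, the anillin of the contractile ring, went from 50.2 ± 1.51 to 87.7 ± 0.535 CPM (SD over n = 3 libraries each; log2 fold change 0.80), Ect2, which activates RhoA at the cell's equator, rose by 0.56, and Aurkb and Incenp, of the passenger complex, rose by 0.54 and 0.33. Plk1, the polo-like kinase that Kif20a binds, rose from 57.2 ± 8.90 to 93.1 ± 4.46 CPM (SD, n = 3 each), and Racgap1, the partner of Kif23, rose by a log2 fold change of 0.21. Those that did not pass were Rhoa (-0.11, edgeR adjusted p = 0.0552), Cit (0.06) and Birc5 (0.10). Plk1, Racgap1 and these 3 genes were named after their values were seen.

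Of 13 tested genes of spindle assembly, 8 rose and 1 fell (median 0.24). Hmmr, a spindle pole protein, rose by a log2 fold change of 0.86, Tpx2, which brings Kif11 and Kif15 to spindle microtubules, by 0.47, and Nuf2, of the kinetochore, by 0.50. Mapre1, the plus-end protein EB1, fell from 299 ± 2.43 to 264 ± 8.89 CPM (SD over n = 3 libraries each; log2 fold change -0.18). Of 8 genes at the centromere, where Kif2c and Kif18a work, 7 rose and 0 fell (median 0.37), led by Sgo2a, the shugoshin that recruits Kif2c, which went from 21.6 ± 1.77 to 41.2 ± 1.71 CPM (SD, n = 3 each), and its log2 fold change was 0.93 ± 0.0741 (SE; edgeR adjusted p = 8.9e-05). Of 6 genes of the chromosome axis, where Kif4 works, 5 rose and 0 fell (median 0.23), among them Ncapg, of condensin I, by 0.60, and Top2a by 0.26.

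Most other genes of G2 and M phase rose. Genes of G1/S and replication moved in both directions, at shares near those of all tested genes. Of 25 genes of G2 and M phase without motors, 18 rose and 1 fell (Cdc25b, -0.22), with a median log2 fold change of 0.34. Ccnb1, the mitotic cyclin B1, went from 31.5 ± 1.06 to 51.9 ± 0.115 CPM (SD over n = 3 libraries each; log2 fold change 0.72), Troap rose by 0.83, Dlgap5 by 0.61 and Cdc20, the activator of the anaphase-promoting complex, by 0.51. Of 35 G1/S and replication genes, 8 rose and 8 fell (22.9% each, against 19.6% and 19.8% of all tested genes), median 0.06. There Rrm2, of ribonucleotide reductase, rose by 0.57, Mcm10 by 0.36, while Orc1, of the origin recognition complex, fell (-0.53) and so did Pola1 (-0.14). Of 14 tubulin genes, 3 rose (Tubb2a, Tubb4b and Tubb5) and 2 fell (Tuba1a and Tubb6), which is 21.4% and 14.3%. The number that fell was 0 or 1 in 13 of 17 alternatives, each left-out library among them. Over the same alternatives, 3 to 14 of the G1/S genes rose and 3 to 11 fell, with 5 lower when any of the saline replicates was left out and 4 without carnosine replicate 3.

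Regulators of mitotic transcription moved in both directions. Of 20 such genes, 7 rose (Foxm1, Mybl2, E2f4, E2f8, Rbl1, Rbl2 and Nfyb) and 5 fell (E2f1, E2f2, E2f7, Lin54 and Cdkn1a). These are shares of 35% and 25%, against 19.6% and 19.8% of all tested genes, and the median log2 fold change was 0.03. These counts were less stable than those of the kinesins: 4 rose and 2 fell without carnosine replicate 3, and 2 fell without carnosine replicate 1 or saline replicate 2. Mybl2, which encodes B-Myb, went from 117 ± 2.43 to 138 ± 2.94 CPM (SD over n = 3 libraries each; log2 fold change 0.24), and Foxm1 from 68.1 ± 3.30 to 82.0 ± 9.42 CPM (SD over n = 3 libraries each; log2 fold change 0.27, edgeR adjusted p = 0.0403). Cdkn1a, the p21 inhibitor of cyclin-dependent kinases that p53 induces after irradiation, had by far the largest difference of the list, from 182.5 ± 2.27 to 40.4 ± 3.53 CPM (SD, n = 3 each), and its log2 fold change was -2.18 ± 0.0618 (SE; edgeR adjusted p = 7.5e-07). The part of any of these genes in the levels of the kinesins was not tested.

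**Figure D5:**
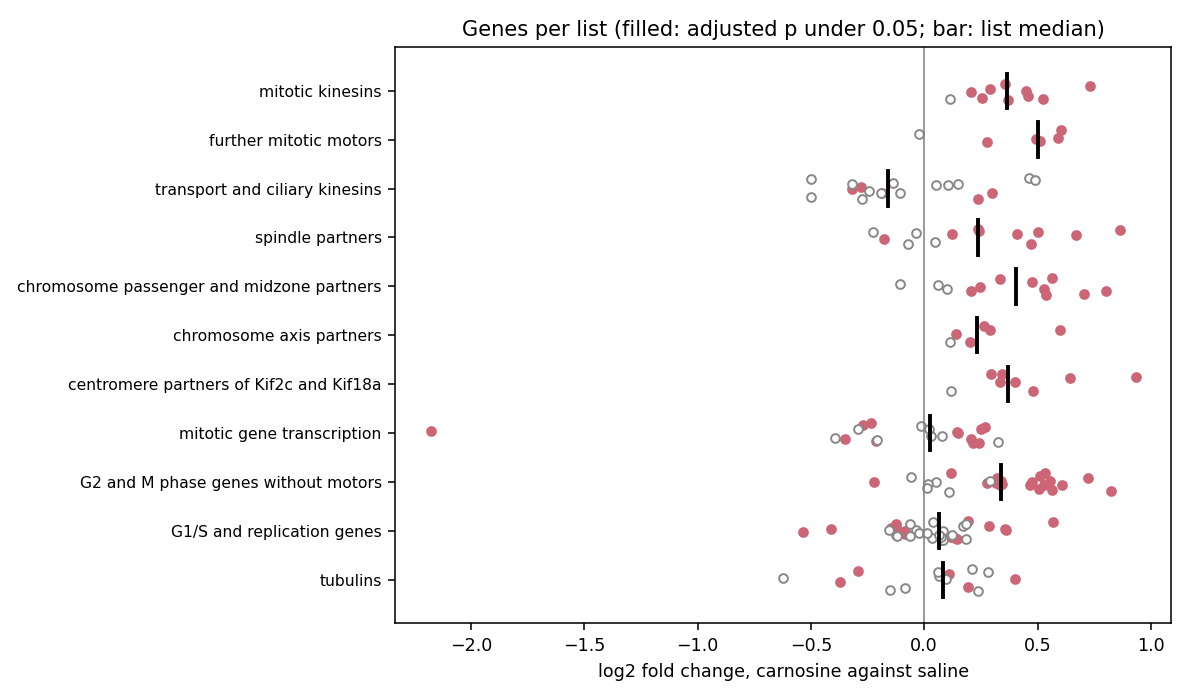
Log2 fold change of carnosine against saline (horizontal axis) of every tested gene in the mitotic kinesins and 10 related lists, with filled points for adjusted p under 0.05 and a bar at the list median. The medians of the mitotic kinesins (0.36), further mitotic motors (0.50), passenger and midzone genes (0.40) and G2 and M phase genes (0.34) lie to the right of those of G1/S genes (0.06) and transport kinesins (-0.16).

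Markers of cell types moved with the treatment as well. Summed levels of 10 myeloid progenitor and granulocyte genes were 3767 to 3792 CPM in the saline and 7751 to 7999 CPM in the carnosine libraries. Most of that was Mpo (2757 and 5404 CPM on average). Of the 10 genes, 7 rose and 2 fell, Ltf (9.39 to 1.11 CPM) and Ngp (12.9 to 3.16 CPM). Summed levels of 8 erythroid genes were 802 to 823 and 917 to 943 CPM (5 rose and 2 fell). Genes of long-term stem cells (233 to 249.9 against 163 to 172 CPM, 0 of 8 rose and 5 fell) and of megakaryocytes (342 to 368 against 139 to 146 CPM, 0 of 5 rose and 5 fell) were lower with carnosine. Transcripts of Flt3 and Cd34, of which the gate excludes the proteins, averaged 210.3 and 328.5 CPM in the saline and 179.9 and 301 CPM in the carnosine libraries, so the label LT-HSC is used here for the gate. Sums of the gate's own 4 genes overlapped between groups (872 to 925 against 874 to 900 CPM), while Kit rose and Flt3 fell. Sums of monocyte genes overlapped too (218 to 252 against 234 to 270 CPM). Of 4 tested, Ly6c2 rose (82.1 to 132.4 CPM) and Csf1r fell (84.3 to 47.8 CPM). Summed B and plasma cell genes ran from 490.3 to 504.3 and from 504.2 to 804 CPM, with 3 of 10 higher and 1 lower. Most of that sum was Jchain, which did not pass the test (edgeR adjusted p = 0.108). Jchain was at 322 CPM on average with saline and at 584.2, 575.6 and 281.4 CPM with carnosine. Summed T and NK cell genes were at 88.5 to 91.1 against 124 to 133 CPM (of 5 tested, 4 rose and Ncr1 fell), most of it from Nkg7 (81.5 and 113.7 CPM on average). Summed endothelial and stromal genes were at 34.5 to 38.6 against 23.0 to 24.8 CPM (of 4 tested, 0 rose and 2, Cdh5 and Kdr, fell). No marker of these lists was at 0 in all libraries, and the part of a shift between cell types in the levels of the kinesins was not tested.

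Among the genes whose levels followed the 10 kinesins most closely over the 6 libraries were Dstn, which encodes destrin, an actin-depolymerising protein (Pearson's r = 0.999 with the mean of the kinesins' standardised log2 CPM), Slc22a4, Zfp992 and Elovl5. Their log2 fold changes were 0.69, 0.73, 0.31 and 0.38. With 2 groups that stand apart, such values are a description: 154 of the 11401 other genes of at least 5 CPM had an r above 0.99.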

How the data were processed

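Poly-A RNA was made into stranded paired-end libraries, per the labels' protocols. CASAVA 1.8, HISAT2, StringTie, edgeR and GRCm38 are named without roles in the submitters' processing notes; the sources used here give neither the annotation nor the use of strand. The deposited table holds whole-number counts and FPKM per gene and library, per the file headers. The deposited FPKM equal counts divided by a length and by the library's total count (checked on 10713 genes). Total counts ran from 12602067 to 16866534 (saline) and 12730837 to 13651553 (carnosine). No libraries were duplicates: squared differences were at least 1.69 times sampling noise within groups.

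Counts of 15533 genes kept by filterByExpr were tested with edgeR 4.0.16 (R 4.3.3; TMM, quasi-likelihood F-test, no covariate), with p-values adjusted over all of them. FPKM tests used limma 3.58.1 on log2(FPKM + 1) and log2(FPKM + 0.1). The procedure was tested on simulated data. Alternatives were DESeq2 1.42.0, other scalings and filters, limma-voom, a replicate block, each library left out, a GC and length correction and a stricter threshold. Gene positions and transcript lengths came from GENCODE M21, promoters from RefSeq (GRCm38.p6). All 10 kinesins are named, with up to 4 genes per list by p-value, all genes where 5 or fewer moved one way, overlapping genes and the 5 most alike. A gene that this rule names is not reported here. The kinesins and lists were chosen with earlier results of these data known. Proteins were not analysed here.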

Additional observations from a re-analysis of the deposited data

How the results depend on the processing

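The count of mitotic kinesins that rose was 9 in every alternative except the 2 FPKM fits, where Kif4 passed as well and it was 10, and 0 fell in each of the 17. Kif4 had a log2 fold change of 0.07 to 0.17 over them, and the other 9 kinesins kept their direction and their call. Leaving out each library in turn gave 9 to 9 kinesins higher and 0 to 0 lower, with 2491 to 2590 genes higher and 2591 to 2727 lower. At an adjusted p under 0.01, 1789 genes rose and 1964 fell. The FPKM fits moved the split of all genes from 3038 higher and 3077 lower to 3387 and 2156 (pseudocount 1) or 3371 and 2144 (pseudocount 0.1), and the median of all genes to 0.05 or 0.06. Samples with the same replicate number hardly deviated together (correlations of 0.0079, 0.0268 and 0.0210). The other pairs of a saline and a carnosine library were lower still (-0.0250 to 0.00359). Values this small do not settle whether the numbers pair the libraries. The fit with a replicate block gave 9 kinesins higher and 0 lower, and 2552 genes higher and 2679 lower. Of 646 counts over the gene lists, 86 moved by more than 1.5 times. For transport kinesins the number that rose was 1 in 8 of the 17 alternatives, among them those without each saline replicate and without carnosine replicate 1. Over the alternatives, 4 to 9 regulators of mitotic transcription rose (4 with the replicate block) and 2 to 5 fell, and 2 to 5 tubulins rose and 0 to 2 fell. Of the markers, 1 to 2 erythroid genes fell, 2 to 5 T and NK cell genes rose and 1 to 3 endothelial and stromal genes fell. In the FPKM fits, 14 genes of G1/S rose and 3 fell. The median of the regulators of mitotic transcription turned negative without carnosine replicate 1 (-0.05) and under the correction for GC and length (-0.00273), while the medians of the kinesins and of the other mitotic lists kept their sign. With the other gene length, and TMM scaling in place of the total count, 18 of 20 levels per length moved by more than the replicate SD. The parts of length and scaling in this were not separated. Kif18a, with 2075 counts, was the least precise of the called kinesins (adjusted p up to 0.0426).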
